A study of Mus musculus with 2 samples.

Results

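The 10 ligand-sensing transcription factors described here, 9 nuclear receptors and Ahr, sense foreign compounds, lipids and hormones. Their RNA was followed across mouse liver cells: Nr1i2 (PXR), Nr1i3 (CAR), Ahr, Ppara, Ppard, Pparg, Nr1h3 (LXR alpha), Rxra, Rara and Esr1. They were taken as a list of symbols, 10 of the 32285 features in each of 2 single-cell count matrices, and all 10 were present in both. The DDC library pooled liver cells of 2 WT mice on normal diet at day 0 and 2 Sox9-EGFP mice after 2 weeks of DDC diet. DDC injures bile ducts and hepatocytes and brings out Sox9-positive, ductal-like hepatocytes, and in the Sox9-EGFP line the reporter follows the Sox9 promoter. The DDC and cMet library pooled 2 WT mice at day 0 and 2 Sox9-CreERT2:Rosa26-mTmG mice after 5 months of DDC with cMet delivered by HTVi, a liver tumour model in which the Cre recombinase is driven by Sox9. The strain label of both was C57BL/6J;129S6/SvEvTac, and the labels give no ages for the mice. Each library is therefore 1 sample that mixes untreated and treated cells, and no file used here maps cells to mice. Treatment, genotype, the time in treatment and the library itself cannot be told apart between the 2 libraries, no difference has a replicate check, and none has a p-value.

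These receptors are transcription factors that sense small molecules. Nr1i2 and Nr1i3 sense drugs and bile acids and drive Cyp3a and Cyp2b genes. Ahr, a sensor of planar aromatic compounds, pairs with Arnt and drives Cyp1a genes. Ppara drives fatty acid oxidation in hepatocytes, Pparg drives lipid storage, Ppard is widespread, and Nr1h3 senses oxysterols and drives cholesterol export and lipogenesis. Rxra is the shared partner that PXR, CAR, the PPARs, LXR and the retinoic acid receptor Rara need to bind DNA, whereas Esr1, the oestrogen receptor alpha, and Ahr do not use it.

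Levels are UMIs (counted RNA molecules) of a gene summed over a group of cells, per 10000 UMIs of that group, with exact Poisson 95% intervals. Ratios are on the log2 scale with exact binomial 95% intervals. All these intervals cover counting error only. Levels differ between genes partly through capture at the 3' end, so they are compared within a gene. A ratio was counted when it reached 2-fold, a log2 ratio of 1 or more in size, among genes with at least 50 UMIs over both sides; all 10 receptors passed that minimum in every comparison.

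After the filter the DDC library kept 2903 of 8694 barcodes (median 29588 UMIs) and the DDC and cMet library 8099 of 18316 (median 13215). The 2 libraries shared 50 barcode sequences, 4 of them among the kept cells of both. Hepatocytes were taken as cells with Alb (albumin) of at least 100 per 10000, called Alb-high: 1869 cells in the DDC library (median 33884 UMIs) and 5821 in the other (median 13937). This is a range and not a type, and 255 and 334 cells lay near that cut. The hepatocyte marker Apoa1, which did not enter the rule, was at 119 and 151 per 10000 in these cells and at 10.0 and 9.35 in Kupffer-marker cells. Kupffer-marker cells numbered 421 and 1360, biliary-marker cells 253 and 84, and endothelial-marker cells 96 and 465. The cell type label reads hepatocytes, but both libraries also held Kupffer-marker and endothelial-marker cells. Biliary-marker cells held hepatocyte RNA as well, with Apoa1 at 55.3 and 33.5 and Hsd17b13 at 10.8 and 9.34 per 10000. They are therefore not called non-hepatocytes here.

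The start regions of Nr1i3, Ppara, Nr1h3 and Nr1i2 are printed. Among the receptors, Nr1i3 had the largest ratio by EGFP and zone, and Ppara between libraries. Nr1h3 had the largest ratio of those higher in Kupffer-marker cells of the DDC library. Nr1i2 is the sister of Nr1i3, with near-equal levels in the 2 libraries. Each is the 250 bases before the annotated start, 5' to 3' on the gene's strand (RefSeq, GRCm38.p6). Letter strings were searched on both strands, and capitals mark a match. The core motif that nuclear receptors bind, AGGTCA, is held by 14.0% of 32851 such windows. The letters of the GC box, GGGCGG, are held by 32.7%, those of the core promoter box TATAAA by 12.4%, and those of the CCAAT box by 33.8%. The median window has 6 CpG pairs. A match describes letters and is no binding site.
Nr1i2 (chr16:38294825-38295074, minus strand): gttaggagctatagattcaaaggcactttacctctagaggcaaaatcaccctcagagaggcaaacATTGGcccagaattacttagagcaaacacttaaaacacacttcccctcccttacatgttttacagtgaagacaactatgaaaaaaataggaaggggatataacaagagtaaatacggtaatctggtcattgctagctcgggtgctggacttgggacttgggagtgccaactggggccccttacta
Nr1i3 (chr1:171213720-171213969, plus strand): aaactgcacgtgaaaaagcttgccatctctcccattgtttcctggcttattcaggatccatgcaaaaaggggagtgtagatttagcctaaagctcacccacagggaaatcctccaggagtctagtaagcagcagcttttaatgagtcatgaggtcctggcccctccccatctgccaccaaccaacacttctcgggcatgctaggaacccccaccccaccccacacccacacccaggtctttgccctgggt
Ppara (chr15:85735526-85735775, plus strand): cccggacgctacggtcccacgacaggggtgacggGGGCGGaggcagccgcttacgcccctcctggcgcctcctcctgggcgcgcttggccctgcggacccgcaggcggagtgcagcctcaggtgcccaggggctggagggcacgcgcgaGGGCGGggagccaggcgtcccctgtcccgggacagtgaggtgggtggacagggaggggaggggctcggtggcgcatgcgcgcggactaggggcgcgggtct
Nr1h3, first of 2 starts (chr2:91195117-91195366, minus strand): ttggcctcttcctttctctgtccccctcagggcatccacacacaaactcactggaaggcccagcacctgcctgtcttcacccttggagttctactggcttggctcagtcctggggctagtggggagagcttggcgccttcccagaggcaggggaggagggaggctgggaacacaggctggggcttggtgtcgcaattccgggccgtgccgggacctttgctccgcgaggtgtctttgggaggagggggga
The windows of Nr1i2 and Nr1i3, the paired drug sensors, hold 2 CpG pairs each; the Nr1i2 window has 1 CCAAT match and the Nr1i3 window has no match to any of these strings. The Ppara window has 27 CpG pairs and 2 GC boxes, and that of Nr1h3 has 7 CpG pairs and no match. In all, 9 of the 10 receptors had an entry, with 17 windows, whose CpG counts ran from 1 to 40, both at starts of Rxra. On mm10 (GENCODE vM21), Nr1i3 spans chr1:171213970-171220701 on the plus strand, Ppara chr15:85734983-85802819 on the plus strand, Nr1h3 chr2:91184061-91202834 on the minus strand, and Ahr chr12:35497974-35535038 on the minus strand. Tomm40l, a mitochondrial import gene on the opposite strand, overlaps the 3' end of Nr1i3. By default Cell Ranger, which made the counts, assigns only reads on a gene's own strand, but no source used here gives the setting of the authors' run. Tomm40l values are therefore given beside those of Nr1i3 in the EGFP and zonal contrasts. They are not given for the other contrasts.

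In Alb-high cells, the xenobiotic sensors Nr1i2 and Nr1i3 stood at near-equal levels in the 2 libraries, whereas Ppara was 3.33-fold higher and Ahr 2.17-fold lower in the DDC and cMet library. Nr1i3 was at 0.424 per 10000 in both libraries, from 2667 and 5547 UMIs, a log2 ratio of -0.00 (95% interval -0.07 to 0.07). Nr1i2 was at 0.258 in the DDC and 0.292 in the DDC and cMet library, a log2 ratio of 0.18 (0.09 to 0.26). Ahr was at 0.552 in the DDC library and 0.254 in the other, a log2 ratio of -1.12 (-1.19 to -1.05). Among the 3 sensors of foreign compounds, Ahr alone reached 2-fold in this comparison.

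Of the lipid sensors, Ppara rested on 1387 UMIs in the DDC library (0.221 per 10000) and 9602 in the DDC and cMet library (0.734), a log2 ratio of 1.73 (1.65 to 1.82). Its ratio was at the percentile 97.3 of the 13645 genes compared. Pparg was at 0.0711 and 0.128, a log2 ratio of 0.85 (0.69 to 1.0), just short of 2-fold. Ppard, the lowest-count member, was at 0.0404 and 0.024, a log2 ratio of -0.75 (-1.0 to -0.51) on 254 and 314 UMIs. The order of the 2 libraries was thus the same for Ppara and Pparg and opposite for Ppard. Nr1h3 was at 0.611 and 0.721, a log2 ratio of 0.24 (0.18 to 0.29).

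Rxra, the shared partner, was at 0.643 in the DDC library and 1.29 in the DDC and cMet library, a log2 ratio of 1.01 (0.96 to 1.06) that lies on the 2-fold line. It reached 2-fold in 6 of 13 alternative settings, with log2 ratios from 0.90 to 1.25. Rara was at 0.168 and 0.149, a log2 ratio of -0.17, and Esr1 at 0.15 and 0.185, a log2 ratio of 0.30. In all, 3 of 10 receptors reached 2-fold beside 17.1% of the 13645 genes: 2 higher beside 6.46% of genes, and 1 lower beside 10.6%. The median receptor had a log2 ratio of 0.21 and the median gene -0.24. Centred on that median gene, Ahr was at -0.88, Ppara at 1.98 and Pparg at 1.09, so Ahr dropped below 2-fold and Pparg passed it.

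**Figure D1:**
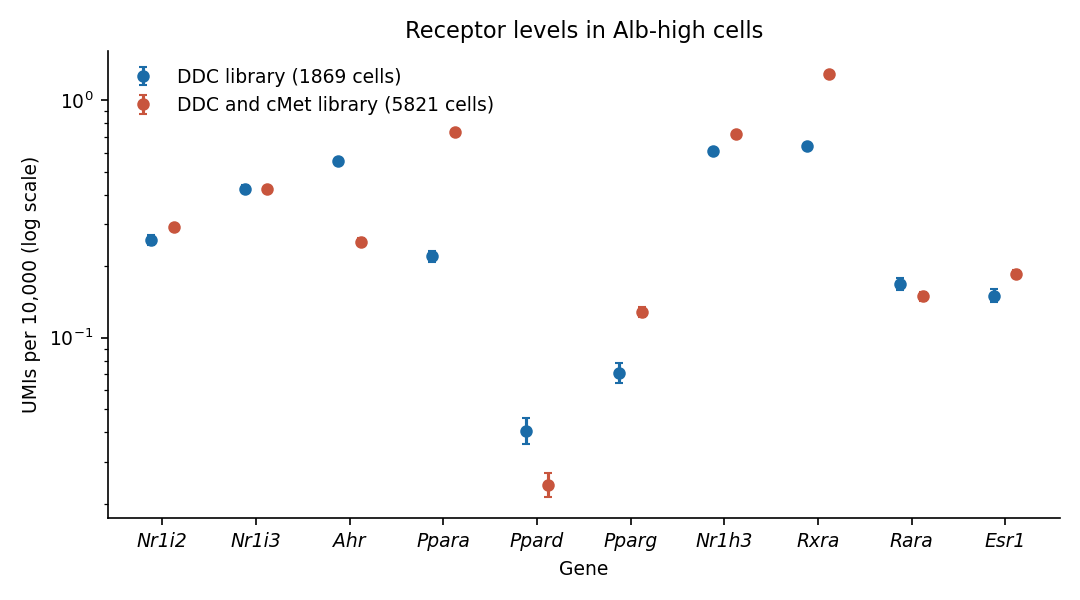
Level of each of the 10 receptors in Alb-high cells, in UMIs per 10000 on a log scale, with exact Poisson 95% intervals; blue is the DDC library (1869 cells) and red the DDC and cMet library (5821 cells), each 1 sample. Ppara, Rxra and Ahr show the widest gaps, and the 2 points of Nr1i3 coincide at 0.424.

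The Ppara and Ahr differences were seen in each group of cells by zonal score. Cells were ranked by a zonal score, the log2 ratio of 7 pericentral to 7 periportal genes, and cut into 3 equal groups within each library, called periportal, midzonal and pericentral cells. Groups of the same name were not matched between libraries: in the periportal group Cyp2f2 had a log2 ratio of 1.99 and Cyp2e1 of 1.19. The Ppara log2 ratio between libraries was 1.79 in the periportal, 1.79 in the midzonal and 1.59 in the pericentral group. That of Ahr was -1.23, -1.16 and -1.03 in the same order, and that of Rxra 1.07, 1.04 and 0.91. Because the libraries differ in depth, the cells were also split into 5 ranges of UMIs per cell: Ppara was higher in the DDC and cMet library in all 5 (log2 1.24 to 1.83) and Ahr lower in all 5 (-1.32 to -0.96). Nr1i3 changed sign across those ranges, from -0.80 in cells of 2000 to 5000 UMIs to 0.28 in those of 50000 or more. Nr1i2 did so too, from -0.41 (-0.97 to 0.18) to 0.34 (0.21 to 0.47) in the same 2 ranges. Against DDC library cells with no EGFP UMI, Ppara had a log2 ratio of 1.59, Rxra 0.92 and Ahr -1.20. Nr1i3 was at -0.20 (-0.28 to -0.12) in that contrast. The summed level of 9 Kupffer markers in Alb-high cells was 2.14 in the DDC library and 3.80 in the other, with none of the 9 at 0; its part in these ratios was not tested.

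Genes known as targets of these receptors are given beside their receptors. The LXR list also holds Nr1h2 (LXR beta), itself a receptor, which is counted among the other nuclear receptors too. Of 23 PPAR alpha targets, 2 were at least 2-fold higher in the DDC and cMet library and 6 lower, with a median log2 ratio of 0.03 beside -0.24 over all genes. The lower ones included Cyp4a31 at -2.88, Pdk4, a brake on glucose oxidation, at -2.23, Cyp4a14, a fatty acid hydroxylase, at -1.85, and Fgf21, a fasting hormone, at -1.52. The direction of Cyp4a14 turned by zonal group: its log2 ratio was 1.70 (1.23 to 2.19) in periportal cells, -1.46 in midzonal and -3.74 in pericentral cells. The 2 higher ones, named after their values were seen, were Fabp1, a fatty acid carrier, at 1.48 and Cpt1a, the carnitine gate to mitochondria, at 1.19. Of 12 LXR targets, 5 were higher and 0 lower, with a median of 0.82: the sterol exporters Abcg5 (2.00) and Abcg8 (1.51), the phospholipid transfer protein Pltp (1.73), the desaturase Scd1 (1.23) and, named after its value was seen, the lipogenic factor Srebf1 (1.03).

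Of 16 measured PXR and CAR targets, 6 were higher and 3 lower, with a median of 0.31. Alas1, the first enzyme of haem synthesis, was at 1.70 per 10000 in the DDC and 5.53 in the DDC and cMet library, a log2 ratio of 1.70, and the carboxylesterase Ces2a had a ratio of 1.87. Cyp2b9 had 0 UMIs in the DDC library and 172 in the other, a log2 ratio of 4.78 with 3 UMIs put in place of 0. The classic CAR target Cyp2b10 went the other way (-1.28), as did Cyp2c29 (-1.26) and the glutathione transferase Gstm3 (-1.06), all 3 named after their values were seen. Of 7 measured AHR targets none reached 2-fold in either direction, the largest ratio being -0.87 for Cyp1a1 on 36 and 41 UMIs. Cyp2, Cyp3a, Cyp4a and Ugt1a genes have near-identical copies, so their counts are uncertain.

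PPAR gamma targets split: the lipid droplet gene Cidea had 109 UMIs in the DDC library and 4 in the other (log2 ratio -5.83, interval -7.73 to -4.43), while Mogat1 and Cidec were higher (2.25 and 1.02), 3 of 7 measured. Of 6 RAR targets, Rarb, itself a retinoic acid receptor, was lower at -1.14. Among 26 other nuclear receptors, 4 were higher, among them Nr4a1 (2.51), the clock receptor Nr1d2 (1.41) and Nr4a3 (1.18), and Rarb was the 1 lower. Of 16 partners and coregulators, the PPAR coactivator Ppargc1b alone reached 2-fold (1.65).

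Within the DDC library, Nr1i3 was lower with each step of EGFP, from 0.487 per 10000 in Alb-high cells without an EGFP UMI to 0.0761 in those with the most, whereas the other 9 receptors stayed within 2-fold in this comparison. Bins were set on cells with at least 10000 UMIs: 819 cells with no EGFP UMI, 396 above 0 and under 1 per 10000, 143 from 1 to under 3, and 63 at 3 or more. Cells of other classes also held EGFP UMIs: the level was 0.367 per 10000 in Kupffer-marker, 0.538 in endothelial-marker, 0.809 in stellate-marker (32 cells), 0.550 in T or NK-marker (20 cells) and 1.95 in monocyte-marker cells (35 cells). The bins under 1 and from 1 to under 3 thus overlap levels seen outside hepatocytes. The reporter was carried only by mice on the diet, while the bin without EGFP also holds cells of the WT mice, so EGFP and diet cannot be told apart in this contrast.

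Nr1i3 was at 0.487, 0.404, 0.281 and 0.0761 per 10000 over the 4 bins in rising order of EGFP. The counting intervals of neighbouring bins do not overlap: 0.463 to 0.512, 0.376 to 0.433, 0.243 to 0.324 and 0.0487 to 0.113. The share of cells in the pericentral group, defined above, fell over the same bins: 42.5%, 17.9%, 9.79% and 3.17%. The 2 middle bins were not split by zone on their own, so the part of zone in those steps was not tested. The top bin against none gave a log2 ratio of -2.68 (-3.33 to -2.10), 6.41-fold lower, at the percentile 0.869 of the 11164 genes compared. The 24 UMIs of the top bin came from 12 of its 63 cells (19.0%), against 546 of 819 (66.7%) in the bin without EGFP. Thinned to 2000 UMIs per cell, the share of cells with an Nr1i3 UMI was 1.59% and 9.89%.

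The partner Rxra stepped down as well, at 0.686, 0.642, 0.542 and 0.431 per 10000, a log2 ratio of -0.67 (-0.93 to -0.42) for the top bin against none. Rara was flat at 0.162, 0.159 and 0.166 and then stood at 0.250 in the top bin, a log2 ratio of 0.63 (0.27 to 0.97). Nr1i2, the sister of Nr1i3, was at 0.249 and 0.225, a ratio of -0.15 (-0.52 to 0.21), and Ahr at 0.584 and 0.558, a ratio of -0.07 (-0.30 to 0.16). Ppara (-0.18), Ppard (-0.26), Pparg (-0.64) and Esr1 (-0.46) had intervals that include 0, on 68, 11, 17 and 37 UMIs in the top bin, so differences of their size were not detectable at this depth. Nr1h3 was at 0.618 and 0.513, a ratio of -0.27 (-0.51 to -0.04). Thus 1 of 10 receptors reached 2-fold, beside 11.9% of genes: 0 higher beside 7.03% of genes, and 1 lower beside 4.84%. The median receptor had a log2 ratio of -0.26 and the median gene 0.18, and Rara was the 1 receptor above 0. Without cells holding 2 markers of another class, Nr1i3 was at -1.25, and Rxra (-1.47), Esr1 (-1.40) and Ppara (-1.28) reached 2-fold as well, 4 of 8 receptors measured.

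**Figure D2:**
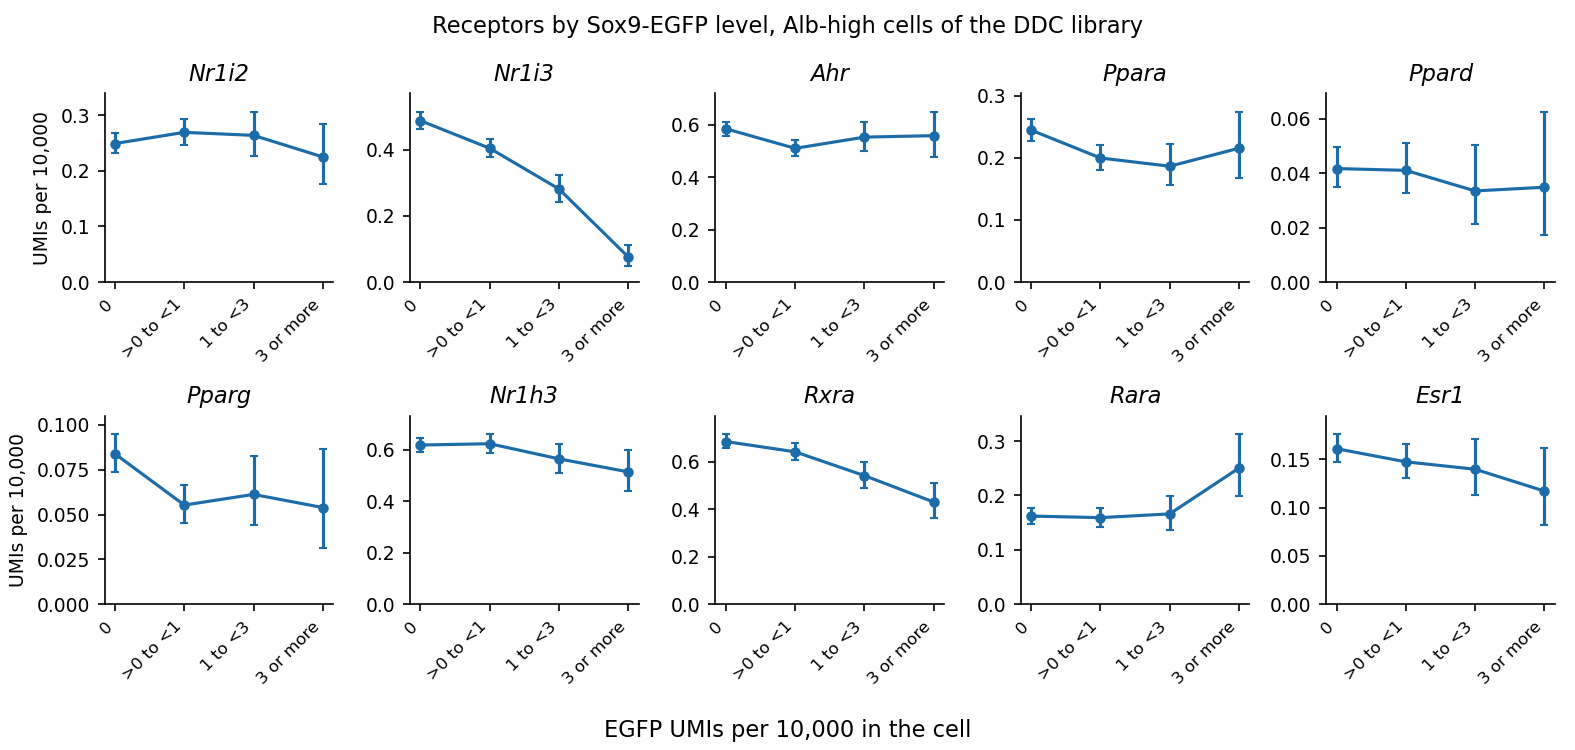
Receptor levels (UMIs per 10000, linear axes from 0) in Alb-high cells of the DDC library by EGFP UMIs per 10000 of the cell, 819, 396, 143 and 63 cells from left to right; bars are exact Poisson 95% intervals. Nr1i3 steps down from 0.487 to 0.0761, and Rxra from 0.686 to 0.431.

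Other properties moved with EGFP. The pericentral enzyme Cyp2e1 was at 3.64 per 10000 without EGFP and 0.162 in the top bin, and 42.5% of cells without EGFP but 2 of 63 in the top bin were in the pericentral group. The periportal Cyp2f2 was also lower, 1.62 against 0.412. The ductal injury gene Spp1 was at 11.9 and 141, Sox9 at 0.689 and 1.90, Alb at 298 and 205, and the median depth was 37004 and 52557 UMIs. Zone was held in part, by the groups of the zonal score, which did not match the bins on zonal genes. In the periportal group Cyp2f2 was at 0.609 in the top bin and 3.22 without EGFP, while Cyp2e1 had a log2 ratio of -0.27. In the midzonal group the log2 ratio was -2.80 for Cyp2f2 and -2.62 for Cyp2e1. For Nr1i3, no UMI was seen in 33 periportal cells of the top bin, against 247 in 234 cells without EGFP (0.264 per 10000). With 3 UMIs put in place of 0 this is 14.4-fold lower, and the interval of the log2 ratio ends at -3.54. In the midzonal group the log2 ratio was -1.62 (-2.37 to -0.96), 19 UMIs in 28 cells. Taking all cells with EGFP of at least 1, Nr1i3 had ratios of -1.54 in the periportal, -0.54 in the midzonal and -0.36 in the pericentral group, the last with an interval that includes 0 (-0.78 to 0.04). The neighbour Tomm40l had a ratio of 0.53 in the full contrast, the opposite direction to Nr1i3.

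Targets of Nr1i2 and Nr1i3 were mostly lower in the top EGFP bin: of 14 measured, 9 were at least 2-fold lower and 0 higher, with a median log2 ratio of -2.08 beside 0.18 over all genes. Cyp2c29 was at 10.1 per 10000 without EGFP and 0.580 in the top bin (-4.12), Cyp3a11, the main drug-metabolising Cyp3a, at 17.4 and 1.31 (-3.73), and Cyp2b10 at 0.211 and 0.0254 (-3.05). Cyp2c55, with 2 UMIs in the top bin, had a ratio of -3.43 (-6.49 to -1.56). Pericentral cells were fewer in the top bin. Within the zonal groups, not matched on zonal genes, Cyp2c29 had log2 ratios of -3.06 (-3.52 to -2.64) in the periportal and -3.52 (-3.90 to -3.17) in the midzonal group. The other targets were not split by zone. The AHR target Cyp1a2 was lower (-3.53) while Ahr itself differed by -0.07, and Nqo1 was at -1.08, 2 of 4 measured.

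Of 22 PPAR alpha targets, 7 were lower and 1 higher (median -0.34). Cyp4a14 had a ratio of -4.44 on 3 UMIs in the top bin, Cyp4a10 -3.53 on 6, and Fabp1 -2.01 on 2051, whereas the acyl-CoA thioesterase Acot1 was higher at 1.88. Of 12 LXR targets, 3 were lower, Scd1 (-2.09), Abcg8 (-1.39) and Abcg5 (-1.07), and 0 higher. Of 6 PPAR gamma targets, Fabp4 (-2.0), Lpl (-1.16) and Plin4 (-1.14) were lower and Cidea higher (1.27), with 4 UMIs of Fabp4, 4 of Plin4 and 11 of Cidea in the top bin. Rarb was higher at 1.54, the same direction as Rara, and Rdh10, which makes retinal, was lower at -1.09, 2 of 6 RAR targets. Among 24 other nuclear receptors, 2 were lower and Rarb was the 1 higher. None of the 16 partners and coregulators reached 2-fold, the largest ratio being 0.64 for the acetyltransferase Crebbp.

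Biliary-marker cells, which have Alb under 100 and at least 3 ductal or progenitor markers, had low Nr1i3 in both libraries: 0.0321 per 10000 in the DDC library (41 UMIs in 253 cells) and 0.0249 in the other (6 UMIs in 84 cells). Against Alb-high cells the log2 ratios were -3.73 (-4.21 to -3.28) and -4.09 (-5.53 to -2.96). Rxra was lower at -1.04 and -1.45, Nr1i2 at -0.52 and -1.43, and Rara was higher at 0.83 and 0.92. Ahr was at -0.15 (-0.28 to -0.03) in the DDC library and 0.68 (0.38 to 0.97) in the other, Pparg at -0.55 and 0.23, and Ppard at -0.14 and 0.47. Esr1 was at -0.96 and -1.08, Ppara at -0.19 and -0.61, and Nr1h3 at -0.45 and -0.25. The biliary markers that selected these cells include Spp1 and Sox9, which moved with EGFP. Spp1 was at 31.2 per 10000 in Alb-high cells of the DDC library. The rule thus does not separate ductal cells from injured hepatocytes with low Alb. The same EGFP split could not be made for tdTomato in the other library, where 2 tdTomato UMIs were counted in kept cells.

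Along the zonal score, Nr1i3 was the 1 receptor to reach 2-fold between the pericentral and the periportal group, and it did so in both libraries. In the DDC library it was at 0.240 per 10000 in the periportal, 0.392 in the midzonal and 0.708 in the pericentral group, a log2 ratio of 1.56 (1.42 to 1.71). The same 3 groups of the DDC and cMet library were at 0.248, 0.400 and 0.671, a ratio of 1.43 (1.34 to 1.53). With cells cut into 10 equal groups along the score, from the most periportal to the most pericentral the level went from 0.142 to 0.921 in the DDC library and from 0.255 to 0.901 in the other. The 1 of 10 receptors past 2-fold stands beside 5.44% of 11421 genes in the DDC library, with 2.1% higher and 3.34% lower in pericentral cells. In the DDC and cMet library it stands beside 4.73% of 12317 genes, with 2.6% higher and 2.14% lower. Among DDC library cells with no EGFP UMI the Nr1i3 ratio was 1.42 (1.21 to 1.62), and Tomm40l had ratios of -0.66 and -0.17 in the 2 libraries. The zonal groups also differed in the ductal injury gene Spp1. It was at 45.9 per 10000 in the periportal and 5.22 in the pericentral group of the DDC library, and at 7.53 and 1.54 in the other. EGFP was at 0.938 and 0.179 in the same groups of the DDC library. The part of injury in the zonal ratios was not tested.

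Ahr and Pparg leaned the same way in both libraries without reaching 2-fold. Ahr was at 0.443 in the periportal and 0.707 in the pericentral group of the DDC library (0.67, interval 0.55 to 0.80), and at 0.189 and 0.347 in the other (0.88, 0.76 to 1.0). Pparg was at 0.0595 and 0.0989 in the DDC library (0.73, 0.40 to 1.06), and at 0.0951 and 0.157 in the other (0.72, 0.55 to 0.90). Over the 10 groups of the DDC and cMet library Pparg was at 0.0433 at the periportal and 0.188 at the pericentral end. Ppard was at 0.79 (0.36 to 1.23) in the DDC library, on 80 and 105 UMIs, and at -0.26 (-0.68 to 0.16) in the other.

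The remaining receptors were nearly flat. Rxra had ratios of 0.29 and 0.13, Nr1h3 0.27 and 0.12, Nr1i2 0.23 and 0.08, Esr1 0.22 and 0.17, Ppara 0.19 and -0.01, and Rara -0.17 and 0.04, the DDC library first. Nr1i2 and Nr1i3, which share many targets, thus differed along the zonal score. In the DDC library the Nr1i2 interval ended at 0.40 and that of Nr1i3 began at 1.42. Cells of the pericentral group were shallower, with medians of 28124 against 40074 UMIs in the DDC library and 9358 against 24664 in the other. Restricted to cells of 10000 to 50000 UMIs, 3 receptors reached 2-fold in the DDC and cMet library: Nr1i3 (1.42), Ahr (1.23) and Pparg (1.0). Thinned to 2000 UMIs per cell, Nr1i3 there was at 0.91 and no receptor reached 2-fold.

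**Figure D3:**
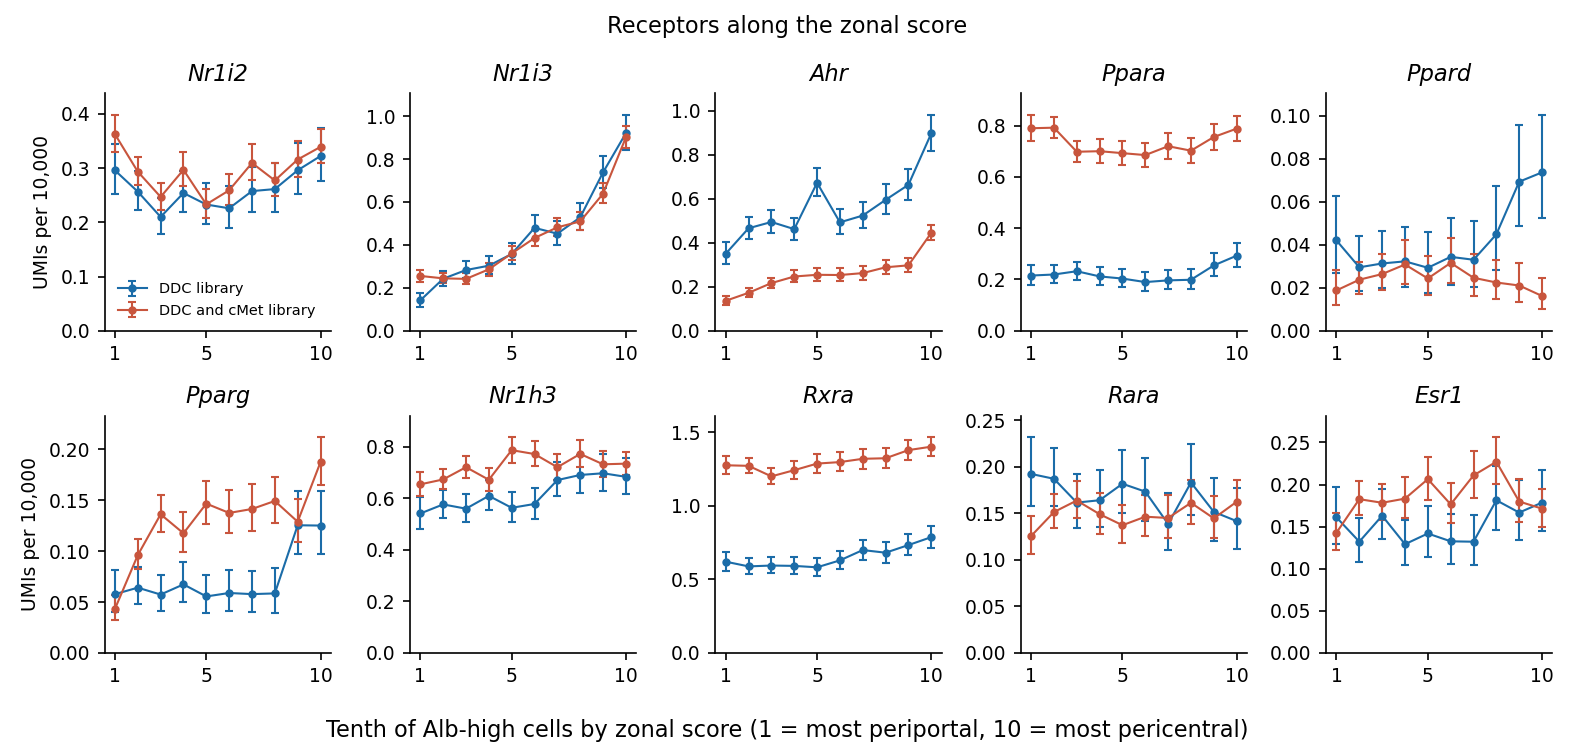
Receptor levels (UMIs per 10000, linear axes from 0) in 10 equal groups of the Alb-high cells by zonal score, from most periportal (1) to most pericentral (10); blue is the DDC library and red the DDC and cMet library, with exact Poisson 95% intervals. The 2 curves of Nr1i3 start apart at 0.142 and 0.255 and end at 0.921 and 0.901, the DDC library first. Those of Ppara lie at 2 separate levels, and in the DDC library Ppara was at 0.190 in group 6 and 0.293 in group 10.

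Of 14 PXR and CAR targets measured in the DDC library, 7 were at least 2-fold higher in the pericentral group and 0 lower (median 1.06 beside -0.08 over all genes), and of 16 in the other library, 4 were higher and 0 lower (median 0.23 beside 0.02). Cyp2c29 had log2 ratios of 3.30 and 3.40 and Cyp2c55 of 2.63 and 2.76. Cyp3a11 was at 2.43 in the DDC library and 0.83 in the other, a difference that was not tested. The AHR target Cyp1a2, which leads its list, was at 2.98 and 2.43, 1 of 4 and 1 of 6 measured targets past 2-fold.

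PPAR alpha targets are given for each library; whether the libraries differ was not tested. In the DDC library 5 of 22 were pericentral: Cyp4a14 (4.41), Cyp4a10 (2.36), Fabp1 (1.59), the peroxisomal enzyme Ehhadh (1.36) and Acaa1b (1.34), and 0 were periportal. In the DDC and cMet library 0 of 22 were pericentral and 2 were periportal, Cyp4a10 (-1.73) and Cyp4a14 (-1.03). Of 12 LXR targets, Scd1 (1.57) and Abcg8 (1.12) were pericentral in the DDC library and none in the other, where Scd1 was at 0.75. Among the remaining lists, Lpl (1.17) and Cidea (-1.27) passed 2-fold in the DDC library, and Cyp26b1, which degrades retinoic acid (1.22), and Nr4a3 (1.53) in the other. None of 16 partners and coregulators passed in either library.

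**Figure D4:**
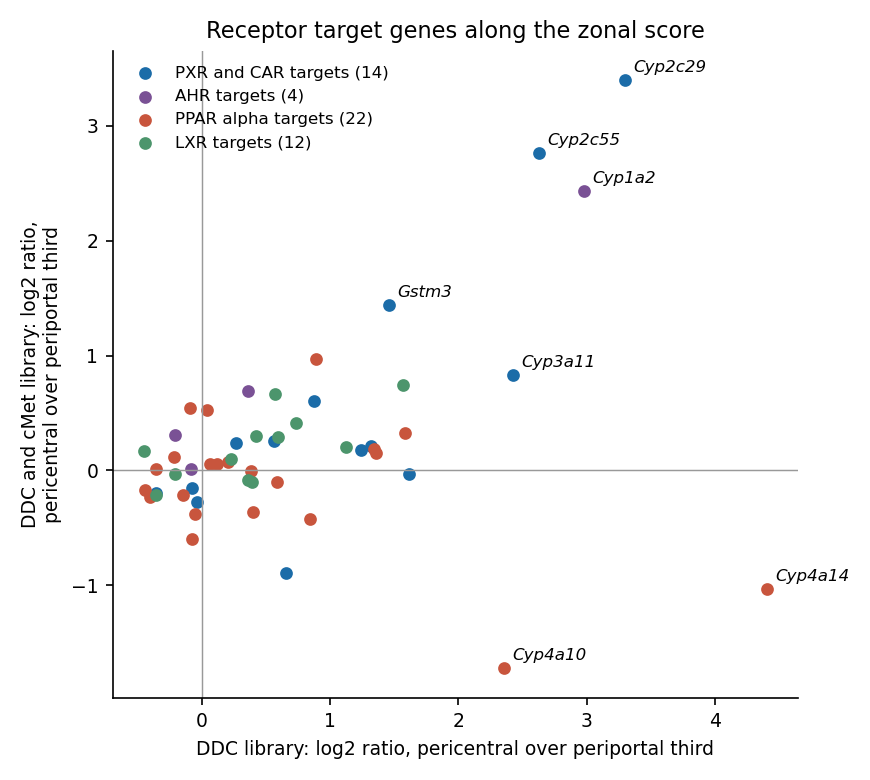
Log2 ratio of the pericentral over the periportal group for receptor target genes, in the DDC library (x axis) and the DDC and cMet library (y axis), coloured by list; each point is 1 gene measured in both. Cyp2c29, Cyp2c55 and Cyp1a2 are high on both axes, while Cyp4a14 and Cyp4a10 are above 0 on the x axis and below 0 on the y axis.

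In Kupffer-marker cells, the resident macrophages of the liver by their markers, Nr1h3 was higher than in Alb-high cells. It was at 4.22 per 10000 (3844 UMIs) in the 421 cells of the DDC library against 0.611 in Alb-high cells, a log2 ratio of 2.79 (2.72 to 2.85). In the other library it was at 4.54 (8090 UMIs) against 0.721, a ratio of 2.66 (2.61 to 2.70). These ratios were at the percentiles 88.9 of 12866 and 85.4 of 13653 genes compared. Ppard had a larger ratio, 2.74, in the DDC and cMet library. Thinned to 2000 UMIs per cell, the DDC library had an Nr1h3 UMI in 52.0% of Kupffer-marker and 12.1% of Alb-high cells, and the DDC and cMet library in 57.1% and 13.2%; without thinning the shares were 93.3% and 70.4%, and 91.0% and 57.9%. Kupffer markers in Alb-high cells stood at 0.701 to 1.20% of their Kupffer level in the DDC library and 1.5 to 1.88% in the other, while Nr1h3 in Alb-high cells was at 0.611 against 4.22 and 0.721 against 4.54. Cells near the Kupffer cut, with marker sums of 15 to 25 per 10000, numbered 7 and 22.

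Ppard was also higher, at 0.154 against 0.0404 in the DDC library (1.93, interval 1.62 to 2.23) and 0.161 against 0.024 in the other (2.74, 2.51 to 2.98). Pparg was at 0.175 against 0.0711 (1.30) and 0.193 against 0.128 (0.60), Rxra at 1.23 against 0.643 (0.94) and 1.38 against 1.29 (0.09). For these receptors the Kupffer levels of the 2 libraries were close, and the ratios parted through the Alb-high level: between libraries the Kupffer-marker cells had a log2 ratio of 0.16 (0.06 to 0.26) for Rxra and 0.15 (-0.13 to 0.43) for Pparg. Rara had ratios of 0.72 and 0.54, and Ahr of -0.62 and 0.05.

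Nr1i2, Nr1i3 and Ppara were at least 2-fold lower in Kupffer-marker cells of both libraries, on 18 to 78 UMIs. Against Alb-high cells the DDC library gave log2 ratios of -2.97, -3.42 and -3.48, and the DDC and cMet library -3.44, -3.27 and -4.22. Free hepatocyte RNA, read from Apoa1, Ttr, Fgb and Apoc3, gave -3.36 to -4.09 in the DDC library and -4.01 to -4.05 in the other. In the DDC library Nr1i3 and Ppara lay within that range and Nr1i2 above it, with an interval (-3.54 to -2.45) that reaches it. In the other library the Ppara interval (-4.58 to -3.88) holds that range, while Nr1i2 (-3.88 to -3.03) and Nr1i3 (-3.62 to -2.95) lay above it. A further hepatocyte marker, Serpina1c, was in Kupffer-marker cells of that library at 7.39% of its Alb-high level, which the Nr1i2 interval reaches and the Nr1i3 interval does not. Esr1 was at 0.0703 and 0.0691 per 10000, with ratios of -1.10 and -1.42, above the free-RNA level. In all, 7 of 10 receptors in the DDC and 6 of 10 in the other library reached 2-fold, beside 46.9% and 56.5% of genes. In the DDC library 3 were higher beside 27.8% of genes and 4 lower beside 19.1%, and in the other 2 were higher beside 35.6% and 4 lower beside 20.9%. The higher counts were thus close to or below their share of genes, and the lower counts above theirs in both libraries. With 10 receptors, whether the counts part from these shares was not tested.

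Of 12 LXR targets, 5 were higher and 4 lower in Kupffer-marker cells in DDC, and 6 higher and 4 lower in DDC and cMet. The higher ones were led by Pltp (6.78 and 5.82), the sterol exporter Abcg1 (6.35 and 5.71), Mylip, which marks the LDL receptor for degradation (5.90 and 5.04), and Smpdl3a (3.40 and 3.62). The hepatocyte and intestinal exporters Abcg5 (-2.77 and -3.69) and Abcg8 (-2.49 and -4.10) and the desaturase Scd1 (-2.03 and -2.51) were lower. Of 6 PPAR gamma targets measured, 3 were higher and 3 lower in each library. The higher Lpl, which frees fatty acids from lipoproteins, was at 16.2 and 14.5 per 10000 against 2.75 and 1.95 in Alb-high cells (2.56 and 2.90). The lower ones included Cidec (-2.73 and -3.49). Of the AHR targets, 2 of 5 were higher and 2 lower in the DDC library, and 2 of 6 were higher and 4 lower in the other. Tiparp (1.38 and 2.41) and Lpcat2 (6.04 and 5.98) were higher, while Cyp1a2 (-4.31 and -3.91) and Nqo1 (-2.84 and -3.04) were lower.

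Ahr had its highest level of the 4 main cell groups in endothelial-marker cells, at 1.65 per 10000 (190 UMIs in 96 cells) in the DDC library and 2.20 (1224 UMIs in 465 cells) in the other. Against Alb-high cells the log2 ratios were 1.58 (1.36 to 1.79) and 3.11 (3.02 to 3.21). An Ahr UMI was seen in 35.4% and 37.2% of these cells after thinning, against 8.79% and 4.63% of Kupffer-marker and 10.0% and 4.41% of Alb-high cells. Ppard was higher there too, at 1.87 and 3.23. The Kupffer marker Clec4f stood at 8.65 and 8.34 per 10000 in endothelial-marker cells against 35.6 and 32.1 in Kupffer-marker cells, and Nr1h3 at 1.35 and 1.30; the part of Kupffer RNA in these values was not tested.

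**Figure D5:**
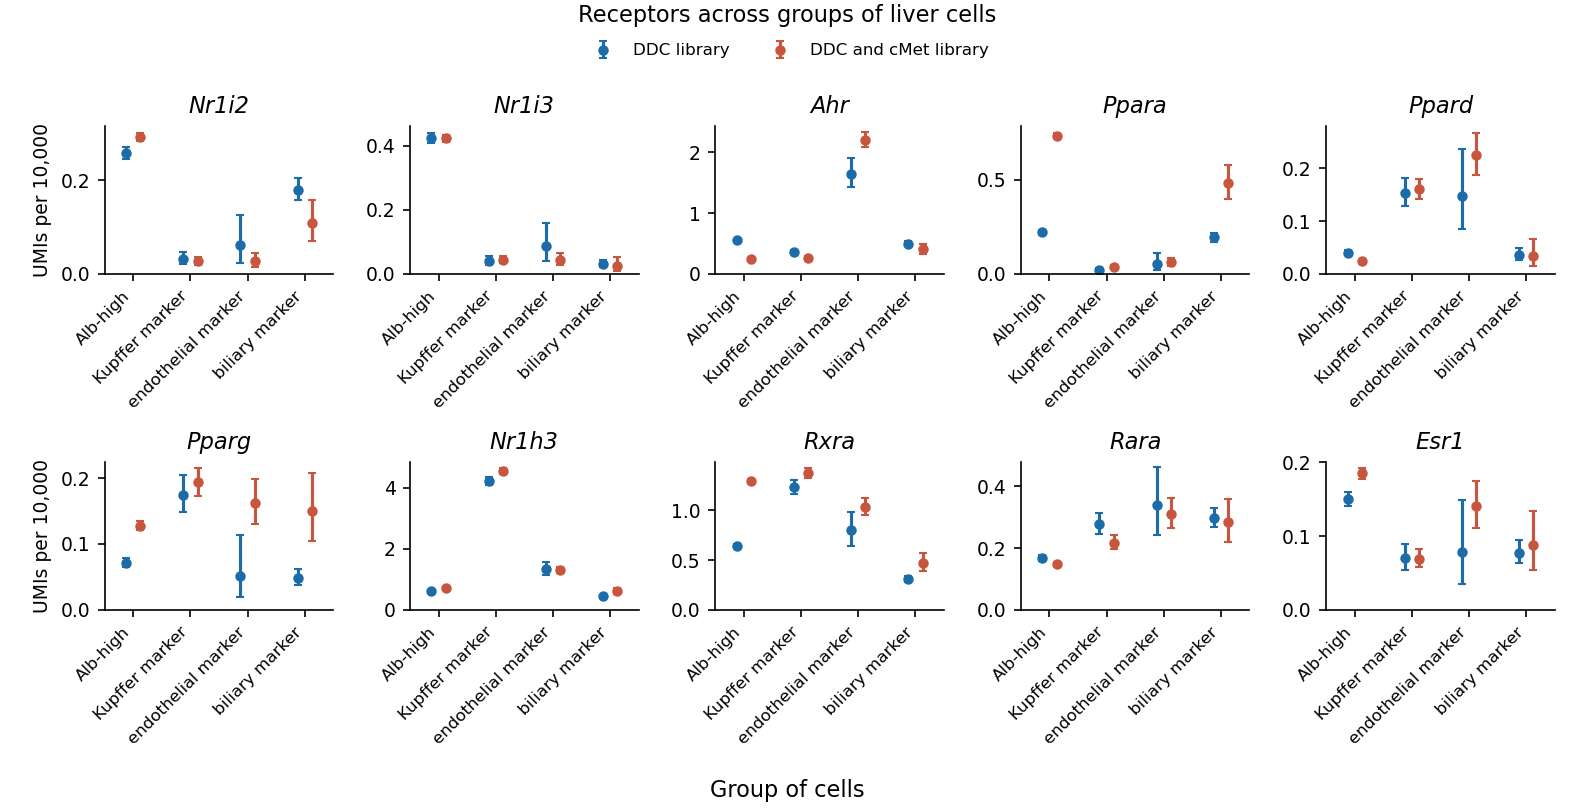
Receptor levels (UMIs per 10000, linear axes from 0) in Alb-high, Kupffer-marker, endothelial-marker and biliary-marker cells; blue is the DDC library and red the DDC and cMet library, with exact Poisson 95% intervals. Nr1h3 peaks in Kupffer-marker cells (4.22 and 4.54), Ahr in endothelial-marker cells (1.65 and 2.20), and Nr1i3 is highest in Alb-high cells (0.424 in both).

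Across 14 cell groups of the 2 libraries, the zonal groups and the marker classes with at least 50 cells, the genes with the most similar pattern were found by Pearson's r of log2(level + 0.1). The groups of a library share their run and its free RNA, so r is a description. Nr1i3 was most like Rdh9 (r = 0.984), Cyp1a2 (0.980) and Pemt (0.969), and Nr1i2 most like Dpys (0.993), Larp1b (0.992) and A1cf (0.990). Ppara was most like Asl (0.987), a urea cycle enzyme, Adora1 (0.985) and Adh5 (0.984). Ahr was most like Slc44a1 (0.980), Ddx3y (0.943) and Fryl (0.922). Nr1h3 was most like the macrophage phosphatase Acp5 (0.974), Slc36a1 (0.973) and Pde8a (0.968). Ppard was most like Limk1 (0.982), with Nuak1 (0.977) also among its 3 leading genes, and Rara most like Cdca4 (0.980), Top2b (0.977) and Rai1 (0.976). Esr1 was most like Scly (0.957), Mmd (0.952) and Srpr (0.946). Rxra, with Foxred1 (0.920), Lrp4 (0.908) and Acad12 (0.888), and Pparg, with Ganc (0.842), Aspa (0.841) and its coactivator Ppargc1b (0.836), had the least similar leading genes.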

How the data were processed

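Per the labels' protocols, liver cells were isolated by perfusion and sequenced with 10x 3' v3 chemistry. The authors deposited UMI counts per gene and barcode, unnormalized; per the file headers they come from Cell Ranger 5.0.1, whereas version 6.0.1, Seurat 4.0.1 and mm10 are listed per the submitters' processing notes. Counts were analysed with Python 3.11.15, numpy 2.4.6, scipy 1.17.1 and pandas 2.3.3. A barcode was kept if it had 500 or more genes, 2000 or more UMIs, and a mitochondrial share no higher than 30%. No doublet caller was run; cells with 2 markers of another class were left out in an alternative.

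UMIs were summed per group and given per 10000, with exact Poisson and conditional binomial 95% intervals, which were tested on simulated data. With 1 library per group no test was possible. Marker cells had Alb under 100 per 10000, at least 3 markers of the class with a UMI and a marker sum of at least 5 per 10000 (20 for Kupffer and biliary). All 10 receptors were named, and from each other list up to 4 genes with the largest ratios; others are said to be named after their values were seen, as are all further genes given from a list. Receptors and lists were chosen with earlier results of these data known. Alternatives covered the filters, Alb minimum, scaling, thinning to 2000 UMIs, zonal cuts and depth. A few genes that these rules name are not reported here.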

Additional observations from a re-analysis of the deposited data

Results flagged for a closer look

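The zonal ratios of 2 Cyp4a genes, fatty acid hydroxylases and PPAR alpha targets, had opposite signs in the 2 libraries; the difference between libraries was not tested. Cyp4a10 had a log2 ratio of pericentral over periportal cells of 2.36 in the DDC library and -1.73 in the DDC and cMet library. Cyp4a14 had 4.41 and -1.03. The Cyp4a14 UMIs were concentrated: in the pericentral group of the DDC and cMet library 26 cells held all 116 UMIs, and the top 10 cells 86.2% of them. In the pericentral group of the DDC library 147 cells held 690 UMIs, the top 10 cells 32.9%. The Cyp4a genes have near-identical copies, so the share of each copy is uncertain.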

How the results depend on the processing

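No paired analysis was possible because each group is 1 library, and for the same reason no replicate could be left out; the tdTomato alternatives gave no value. Over all alternatives, 650 values stayed within their counting error or within 1.5 times the count, 152 moved, and none that reached 2-fold changed sign. The number of receptors past 2-fold in the EGFP comparison, 1 of 10, was 4 when cells were thinned to 2000 UMIs, 4 of 8 measured without cells holding 2 markers of another class, and 2 in cells of 10000 to 50000 UMIs, a range chosen after seeing the data. The zonal count of 1 was 3 in both libraries with the outer sixths of the score; in the DDC and cMet library it was 0 after thinning and 3 in cells of 10000 to 50000 UMIs. The cause was not tested. Nr1i3 stayed past 2-fold in 15 of 15 EGFP alternatives (-3.85 to -1.25). The value of -3.85 rests on 3 UMIs put in place of 0. Ratios for EGFP of at least 1 in the midzonal (-0.54) and pericentral (-0.36) groups were not among these 15 and fell short of 2-fold. In the zonal alternatives Nr1i3 passed 2-fold in 15 of 15 of the DDC library (1.15 to 2.22) and 13 of 14 of the other (0.91 to 1.70). Between libraries Ppara stayed past 2-fold in 13 of 13 (1.5 to 1.98) and Ahr in 12 of 13 (-1.22 to -0.88). The Nr1i3 ratio between libraries ran from -0.33 to 0.24, and 8 of its 13 alternatives moved. Depth limits Ppard and Pparg most, with 11 and 17 UMIs in the top EGFP bin.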
